A study of Mus musculus with 108 samples.

Results

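The expression of 9 myelin genes, Mbp, Mog, Mag, Mobp, Cnp, Mal, Cldn11, Myrf and Ugt8a, was followed in 3 brain regions and 3 developmental periods of WT and Cul3+/- mutant mice. The genes were chosen by symbol, and each symbol matched 1 Ensembl gene among the 53465 genes counted. Libraries of ribodepleted total RNA came from the cerebellum (CB), the hippocampus (HIP) and the cerebral cortex (CX) of the same mice before birth (E17.5), early after it (P7) and in adults (P35, 4 to 6 weeks), with 6 WT and 6 Cul3+/- mice at each period. All mice shared a strain background labelled C56Bl/6N, which the methods of the study spell C57BL/6N. The mutants carried 1 germline copy of Cul3, a scaffold gene of ubiquitin ligases, with a 1-bp CRISPR insertion in exon 6 that shifts the reading frame. The mutant line descended from a single founder, and the mutation was present in every cell of the body, so effects in oligodendrocytes and in other cells were not separated. For 2 adult mice the sample labels and the quality table of the study gave opposite genotypes. Their 6 libraries were left out, which left 34 mice with 3 libraries each and 5 adult mice of each genotype.

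Myelin is the spiral of oligodendrocyte membrane that insulates axons in the central nervous system. Oligodendrocyte precursors first become newly formed oligodendrocytes and then mature cells that switch on the genes of the sheath, and in the rodent brain this proceeds after birth and from caudal regions to rostral ones. Mbp and Mobp encode cytoplasmic proteins that hold the membrane layers together, and Mal a small lipid-raft protein of membrane transport. Mag, Mog and Cldn11 encode proteins of membrane contact: Mag faces the axon, Mog lies on the outer surface of the sheath and Cldn11 forms the tight junctions between its layers. Cnp encodes an enzyme of the non-compacted cytoplasmic channels, Ugt8a the enzyme that makes the galactosylceramide of the sheath, and Myrf the transcription factor that drives the mature program.

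Promoter sequences from RefSeq (GRCm38.p6, the 250 bases before the transcription start) were found for 7 of the 9 genes, those other than Mbp and Myrf. They are shown because the 9 genes rose together and because one of them, Myrf, encodes a factor with a known recognition motif. Capitals mark matches, on either strand, to the MYRF motif (CTGGCAC or CTGGTAC), the SOX motif (ACAAAG or ACAATG) and the GC box (GGGCGG). Mag, Cnp and Mog hold a MYRF match, Mobp holds 6 SOX matches, and Mal holds none of these motifs.
Mag, first of 3 starts, minus strand, chr7:30914864-30915113: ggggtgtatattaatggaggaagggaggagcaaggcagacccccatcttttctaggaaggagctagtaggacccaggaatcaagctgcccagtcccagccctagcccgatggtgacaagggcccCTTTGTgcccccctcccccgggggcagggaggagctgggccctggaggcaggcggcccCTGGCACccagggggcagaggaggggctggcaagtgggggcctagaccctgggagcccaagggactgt
Cnp, plus strand, chr11:100574689-100574938: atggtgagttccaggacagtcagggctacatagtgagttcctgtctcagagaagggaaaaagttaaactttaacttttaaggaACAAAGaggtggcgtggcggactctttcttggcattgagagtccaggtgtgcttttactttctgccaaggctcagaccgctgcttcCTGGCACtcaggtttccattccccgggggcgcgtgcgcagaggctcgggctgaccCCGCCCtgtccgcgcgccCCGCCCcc
Mog, minus strand, chr17:37023399-37023648: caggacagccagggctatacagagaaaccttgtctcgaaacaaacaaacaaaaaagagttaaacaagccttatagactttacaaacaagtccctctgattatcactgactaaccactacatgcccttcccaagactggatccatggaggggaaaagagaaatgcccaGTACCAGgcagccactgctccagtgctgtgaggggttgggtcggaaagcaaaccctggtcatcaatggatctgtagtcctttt
Mobp, plus strand, chr9:120149492-120149741: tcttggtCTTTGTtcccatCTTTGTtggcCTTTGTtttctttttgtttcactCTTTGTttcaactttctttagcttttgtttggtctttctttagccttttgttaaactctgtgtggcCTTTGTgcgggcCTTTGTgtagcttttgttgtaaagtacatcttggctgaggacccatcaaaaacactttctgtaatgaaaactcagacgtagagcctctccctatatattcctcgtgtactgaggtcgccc
Mal, minus strand, chr2:127656696-127656945: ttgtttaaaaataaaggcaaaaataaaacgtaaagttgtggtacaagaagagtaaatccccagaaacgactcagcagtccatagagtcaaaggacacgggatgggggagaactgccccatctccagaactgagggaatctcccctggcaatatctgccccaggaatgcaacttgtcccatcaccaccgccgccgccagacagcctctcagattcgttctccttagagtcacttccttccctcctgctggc
A gene of the 7 was counted when any of its starts held a match, whereas the shares of all promoters count each start, so the units differ. Start 3 of Mag held no MYRF and no SOX match. A MYRF match stood in 3 of the 7 genes (Mag, Cnp and Mog) and in 5.93% of 32851 mouse promoters of this length. A SOX match stood in 3 of the 7 (Mag, Mobp and Cnp) and in 25.2% of all promoters. A GC box stood in 2 of the 7 (Ugt8a and Cnp) and in 32.7% of all promoters, and 2 of the 3 in Ugt8a overlap each other. An E-box (CAGCTG) stood in none of the 7 and in 13.0% of all promoters. In Mag the MYRF match began 68 bases before the start shown, in Cnp 81 and in Mog 83. These matches describe letters in a window, and binding was not measured.

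Libraries held between 15126093 and 44411259 expected counts (median 32663939). Cul3 itself, the check of the labels, was lower in the mutants at every period in every region, by 0.74 to 0.99 on the log2 scale. The summed markers of cortex, hippocampus and cerebellum were each highest in the region of that name at every period. Summed brainstem markers had medians of 9.892 to 17.26 CPM (counts scaled to the library total) in CB of WT mice and of 0.5989 to 2.505 in CX and HIP. Schwann cell markers, which would show peripheral myelin, had medians of 0.8539 to 6.399 CPM. Choroid plexus markers ran from 18.56 to 1507 CPM among the 6 WT CB libraries of P7. The part of these tissues in the results below was not tested.

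The 9 genes rose from E17.5 to P7 and again from P7 to P35 in each region, and at P7 all 9 were higher in CB than in CX and HIP. At P35 the regions lay close together. In WT mice the summed level of the 9 genes had medians of 32.37, 156 and 3116 CPM in CX at E17.5, P7 and P35. In HIP these were 31.95, 144.7 and 3814 CPM, and in CB 71.57, 1087 and 3187 CPM. CB thus held several times the sum of CX and HIP at P7, and a similar sum at P35. In bulk RNA, fewer cells of a type and less RNA per cell cannot be told apart. Levels are in CPM after TMM scaling over all libraries kept, given as mean ± SD over mice.

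**Figure D1:**
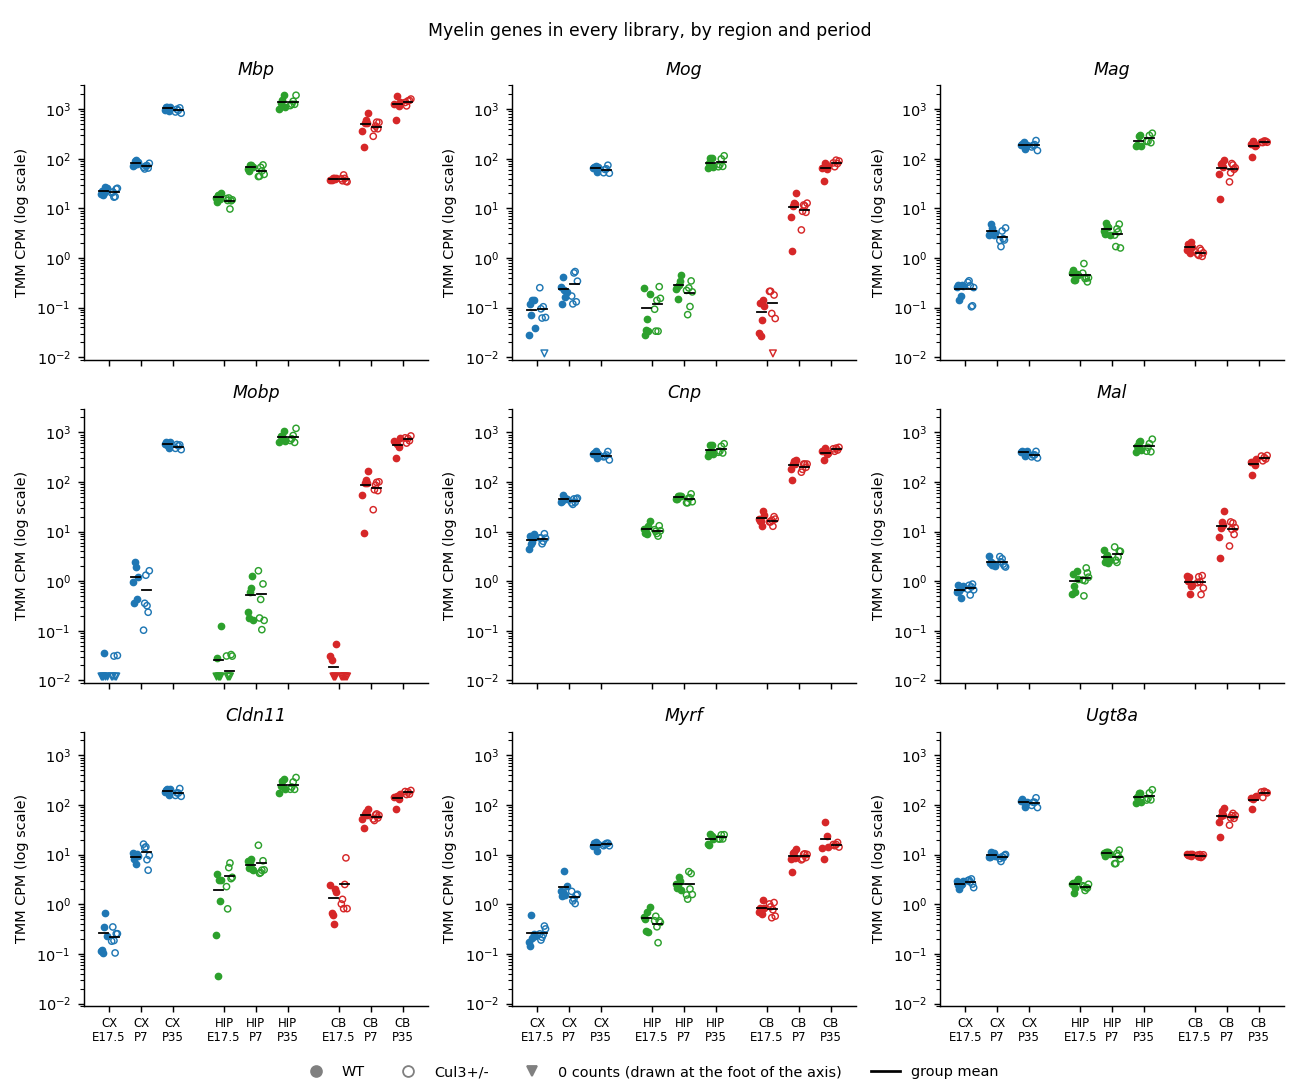
Level of each myelin gene (TMM CPM, log axis) in every library, by region and period. Filled points are WT and open points Cul3+/- libraries, bars are group means, and triangles at the foot of the axis are libraries with 0 counts. At P7 the CB points stand above those of CX and HIP, except that the lowest CB points of Mal and Myrf overlap them. At P35 the 3 regions overlap or lie close together.

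Mbp (chr18:82475146-82585637, plus strand; coordinates of genes are those of GRCm38 in GENCODE) was the most abundant of the 9 in every group. Its count merges the transcripts of classic myelin basic protein with those of the longer Golli form, which other cells also use. At P7 the 6 WT mice held a lowest, median and highest level of 71.47, 81.22 and 92.83 CPM in CX, 57.66, 68.38 and 74.45 CPM in HIP, and 172.1, 527.3 and 819 CPM in CB. The CB libraries did not overlap those of the other regions, and they spread widely among themselves. At E17.5 the means were 22.2 ± 3.39 CPM in CX, 16.7 ± 2.51 in HIP and 39.3 ± 1.79 in CB (n = 6 mice). At P35 the 5 mice held 928.7, 945.1, 1103, 1104 and 1117 CPM in CX. They held 1017, 1125, 1358, 1504 and 1967 CPM in HIP, and 605.5, 1158, 1290, 1362 and 1835 CPM in CB. The adult regions overlapped, and 1 mouse, P35_15, gave the lowest adult CB library.

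Mobp (chr9:120149707-120181484, plus strand) had the widest range of the 9. At E17.5 it was close to absent: the 12 libraries of both genotypes held 3 counts in all in CX, 8 in HIP and 4 in CB. At P7 its lowest, median and highest levels in WT mice were 0.36, 1.097 and 2.469 CPM in CX, and 0.168, 0.4209 and 1.292 CPM in HIP. In CB they were 9.489, 93.52 and 163.8 CPM, with no overlap. At P35 the means were 577 ± 58.4 CPM in CX, 806 ± 177 in HIP and 562 ± 174 in CB (n = 5), and each HIP library lay above those of CX. Of the exon bases of Mobp, 1.2% are shared with the transcript Gm38642 on the same strand.

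Mal (chr2:127633226-127656695, minus strand) stood apart in CB. Its WT means at E17.5 were 0.673 ± 0.14 CPM in CX, 0.997 ± 0.427 in HIP and 0.940 ± 0.268 in CB. At P7 the lowest, median and highest levels were 2.031, 2.261 and 3.276 CPM in CX, 2.325, 2.895 and 4.151 CPM in HIP and 2.871, 12.64 and 25.99 CPM in CB. The lowest CB library overlapped the other regions, and the CB of each mouse was still above its own CX and HIP. At P35 the 5 mice held 139.7, 218.6, 247.7, 253.1 and 283 CPM in CB, against 326.9, 403.9, 405.5, 420.4 and 428.1 CPM in CX and 395.4, 437.5, 529.3, 636.5 and 655.1 CPM in HIP. Adult CB thus lay wholly below adult CX and HIP for Mal, whereas adult CX and HIP overlapped.

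Mag (chr7:30899176-30914873, minus strand) and Mog (chr17:37010743-37023398, minus strand), which both carry a MYRF motif in the sequences above, differed in their early levels. Mag was already measurable at E17.5, at 0.237 ± 0.0637 CPM in CX, 0.450 ± 0.0865 in HIP and 1.645 ± 0.339 in CB. Its P7 levels in WT mice had a lowest, median and highest value of 2.9, 3.194 and 4.886 CPM in CX, 2.969, 3.874 and 5.116 CPM in HIP, and 15.12, 72.98 and 96.3 CPM in CB. Mag had no overlap between CB and the other regions at either period. Mog was near the floor at E17.5, with 33, 36 and 44 counts over the 12 libraries of CX, HIP and CB. It was still low at P7 in CX (0.12 to 0.416 CPM) and HIP (0.15 to 0.448 CPM), where CB held a lowest, median and highest level of 1.395, 11.77 and 20.54 CPM. At P35 the means of Mag were 189 ± 21.1 CPM in CX, 229 ± 61.2 in HIP and 180 ± 46.3 in CB. Those of Mog were 65.3 ± 6.94 CPM in CX, 84.1 ± 18.3 in HIP and 64.0 ± 17.46 in CB, and the 3 regions overlapped for both genes.

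Cldn11 (chr3:31149920-31164324, plus strand) was uneven between mice at E17.5, at 0.266 ± 0.222 CPM in CX, 1.96 ± 1.70 in HIP and 1.31 ± 0.861 in CB. The 6 WT HIP libraries of E17.5 ran from 0.03546 to 4.065 CPM of Cldn11. Summed meninges markers in the same libraries ran from 47.88 to 172.6 CPM, and the library lowest in Cldn11 was also the lowest in meninges markers. At P7 the lowest, median and highest WT levels were 6.38, 9.209 and 10.84 CPM in CX, 4.789, 6.142 and 8.155 CPM in HIP and 33.75, 64.5 and 84.62 CPM in CB. Meninges markers at P7 had medians of 203.7, 252.2 and 352.6 CPM in CX, HIP and CB, and their part in the Cldn11 levels was not tested. At P35 the 5 mice held 83.77, 131.3, 146.5, 155 and 162.9 CPM in CB, 157.4, 179.6, 197.9, 206 and 211.2 CPM in CX, and 177.6, 207.7, 236.9, 305.5 and 326.6 CPM in HIP. Only the highest of the adult CB libraries reached the lowest of CX, and none reached HIP.

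Cnp (chr11:100574904-100591729, plus strand) was among the earliest of the 9. Its E17.5 means were 6.81 ± 1.67 CPM in CX, 11.3 ± 2.65 in HIP and 18.6 ± 4.51 in CB. At P7 its lowest, median and highest levels were 39.64, 46.62 and 53.8 CPM in CX, 44.53, 50.92 and 52.84 CPM in HIP and 108.5, 232.2 and 274.2 CPM in CB. At P35 its means were 366 ± 45.0, 443 ± 109 and 384 ± 75.5 CPM in CX, HIP and CB, and the regions overlapped. Cnp shares 4.2% of its exon bases with Dnajc7 on the opposite strand, and the libraries were stranded.

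Ugt8a (chr3:125865271-125938619, minus strand) was high early in CB: 10.0 ± 0.403 CPM at E17.5, where CX held 2.56 ± 0.343 and HIP 2.53 ± 0.552. That embryonic CB level equalled the level of CX a period later, 10.0 ± 1.12 CPM at P7. The lowest, median and highest P7 levels were 8.931, 9.971 and 11.46 CPM in CX, 9.369, 10.98 and 11.28 CPM in HIP and 22.89, 62.33 and 86.8 CPM in CB, with CB apart. At P35 the means were 116 ± 14.2, 143 ± 30.9 and 129 ± 26.9 CPM in CX, HIP and CB, and the libraries overlapped.

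Myrf (chr19:10208272-10240748, minus strand), the transcription factor, had the lowest adult level of the 9 genes. It stood at 0.268 ± 0.165, 0.534 ± 0.242 and 0.824 ± 0.204 CPM in CX, HIP and CB at E17.5. At P7 its lowest, median and highest levels were 1.47, 1.825 and 4.582 CPM in CX, 1.96, 2.493 and 3.564 CPM in HIP and 4.43, 9.472 and 13.05 CPM in CB. The lowest CB library just overlapped the highest of CX. At P35 the CB libraries held 8.065, 13.31, 14, 23.51 and 46.36 CPM, the widest relative spread of any adult group, against 15.6 ± 2.23 CPM in CX and 20.5 ± 4.57 in HIP.

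The WT means of 8 genes had the same order of groups: the E17.5 groups were lowest, then CX and HIP at P7, then CB at P7, and the adult groups were highest. Ugt8a differed in that its E17.5 CB level lay at that of CX at P7, and above CX and HIP of P7 with plain library sizes (11.07 against 9.654 and 10.46 CPM). CX and HIP were neighbours at P7 that overlapped for every gene. In CB, the P7 and adult libraries overlapped for Mbp, Cldn11, Myrf and Ugt8a, in each case through the adult library of mouse P35_15 alone. Per kilobase of merged exon, a scale that depends on that length (8469 bases over all transcripts of Mbp, Golli included, and 2778 of Mal), adult CX held 142.9 ± 14.6 CPM per kb of Mal, 122.8 ± 11.1 of Mbp, 101.8 ± 11.8 of Cldn11 and 100.5 ± 12.4 of Cnp. It held 84.2 ± 8.53 of Mobp, 46.4 ± 5.18 of Mag, 38.3 ± 4.08 of Mog, 25.5 ± 3.13 of Ugt8a and 1.82 ± 0.261 of Myrf. The ranges of mean ± SD overlapped for Mal and Mbp, and for Cldn11 and Cnp, and these differences were not tested. At P7 in CX the order was another one: Cnp led at 12.7 ± 1.35 CPM per kb, followed by Mbp at 9.68 ± 1.07, and Mal stood at 0.862 ± 0.162.

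At P7 the difference between CB and CX was tested within the WT mice, with the mouse as a block. All 9 genes were called higher in CB at an adjusted p of 0.1 or less (edgeR quasi-likelihood test, Benjamini-Hochberg over all genes). Among the 18493 genes tested, 44.1% were called higher in CB and 82.9% in either direction, so a call on its own was common, and the sizes were less so. The median log2 difference of the 9 genes was 2.57, against 0.06 over all genes. The log2 difference was largest for Mobp, 6.17 ± 0.28 (SE), then Mog, 5.46 ± 0.35, and Mag, 4.13 ± 0.25. It was 2.78 ± 0.17 for Cldn11, 2.57 ± 0.19 for Mbp, 2.53 ± 0.18 for Ugt8a and 2.33 ± 0.32 for Mal. The smallest values were 2.23 ± 0.12 for Cnp and 2.11 ± 0.17 for Myrf. Mog passed the filter on low counts through its CB libraries, here and in the P7 comparisons with CB that follow, so its call is not support and 8 calls remain.

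Against HIP, the 9 genes were also called higher in CB at P7, with log2 differences from 1.88 (Myrf) to 7.43 (Mobp), where 42.3% of all genes were called higher. Every one of the 12 P7 mice, WT or mutant, held more of each of the 9 genes in CB than in its own CX and HIP. In the 6 mutant mice, a separate set, all 9 were again called higher in CB than in CX, by 2.21 (Mal) to 6.96 (Mobp) on the log2 scale, where 43.4% of all genes were called higher, and 40.2% against HIP. Leaving out any 1 WT mouse kept all 9 calls in both comparisons, with Mag between 3.96 and 4.41 and Mal between 2.01 and 2.62 against CX. Mouse P7_C1_8 held the lowest CB level of each of the 9 genes among the WT mice, and mouse P7_C2_10 the highest. The CB library of P7_C2_10 also held the highest sums of choroid plexus markers (1507 CPM, against 18.56 to 375.9 in the other WT mice) and brainstem markers (23.78 CPM, against 8.286 to 10.91), and that of P7_C1_8 the highest sum of meninges markers (459.3 CPM, against 305.4 to 395.8). With either mouse left out the 9 calls held.

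HIP and CX differed less at P7. Mobp (log2 difference -1.26, adjusted p = 0.0234, edgeR) and Cldn11 (-0.56, adjusted p = 0.0166) were called lower in HIP, which is 2 of 9 genes where 57.0% of all genes were called. Mobp passed the filter on low counts through CX and CB, where it was higher. Its call here, and that of CB over HIP at P7, are therefore not support. The other 7 lay between -0.30 (Mbp) and 0.32 (Mog) and were not called. Mbp was lower in HIP than in CX in each of the 12 mice. In the mutant mice Mobp was not called (-0.23 ± 0.57), Mbp (-0.37) and Cldn11 (-0.72) were called lower and Myrf (0.72) higher in HIP, where 53.3% of all genes were called.

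**Figure D2:**
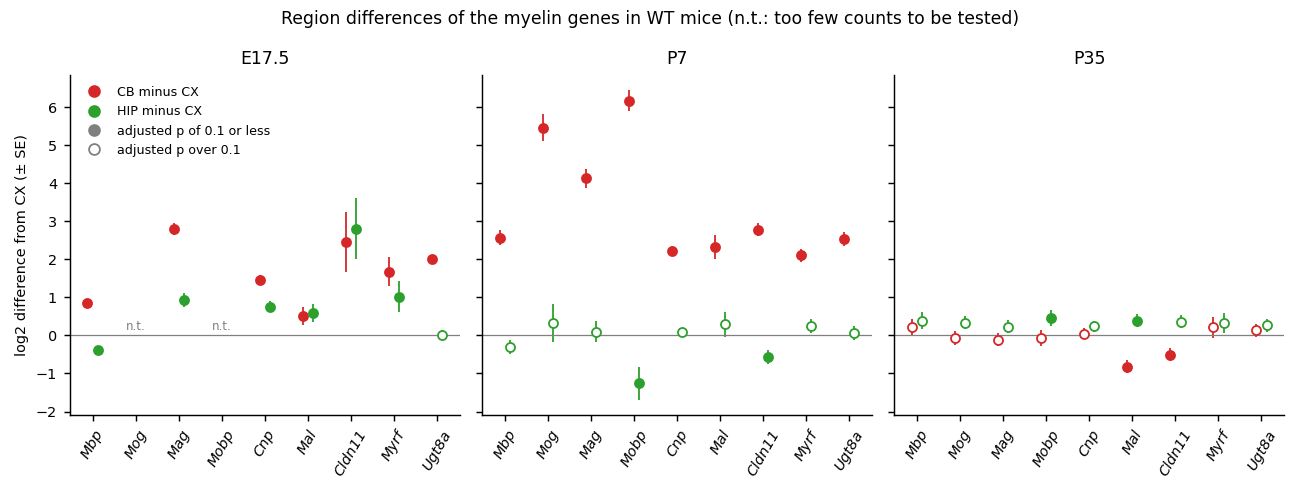
Log2 differences of CB and HIP from CX in WT mice at each period, with SE bars. Filled points have an adjusted p of 0.1 or less, and n.t. marks Mog and Mobp at E17.5, which had too few counts. At P7 the CB points run from 2.11 to 6.17 while the HIP points lie near 0, apart from Mobp at -1.26.

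The region order was partly present before birth. At E17.5, 7 of the 9 genes had enough counts to be tested (Mog and Mobp had not), and Mag, Cldn11 and Myrf had them through HIP or CB. All 7 were called higher in CB than in CX, where 31.3% of the 17793 genes were called higher and 61.7% in either direction. The calls of Mag, Cldn11 and Myrf over CX, here and for HIP below, are not support. These genes passed the filter on low counts through regions where they were higher. The log2 difference was 2.80 ± 0.16 for Mag, 2.46 ± 0.79 for Cldn11, 2.00 ± 0.12 for Ugt8a, 1.67 ± 0.38 for Myrf and 1.46 ± 0.14 for Cnp. It was 0.85 ± 0.10 for Mbp and 0.52 ± 0.24 for Mal (adjusted p = 0.0832, edgeR). The call of Mal held in 2 of the 6 fits that left out 1 mouse each, with an adjusted p between 0.0786 and 0.218. HIP stood between the other regions for Mag (0.94 above CX), Cnp (0.76) and Myrf (1.02), and these were called, as were Cldn11 (2.81) and Mal (0.59), although Myrf and Mal held their call in 2 of 6 fits with 1 mouse left out (adjusted p up to 0.208 and 0.214, edgeR). Mbp was called lower in HIP than in CX (-0.39), and Ugt8a did not pass (0.01 ± 0.12). That makes 6 of 7 called, where 46.5% of all genes were. Against HIP, 4 of the 7 were called higher in CB (Mbp 1.24, Mag 1.86, Cnp 0.71 and Ugt8a 1.99), where 49.5% of all genes were called.

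In adults no gene of the 9 was called higher in CB than in CX in the full set of WT mice. Mal (-0.82 ± 0.18, adjusted p = 0.00117, edgeR) and Cldn11 (-0.51 ± 0.17, adjusted p = 0.0186) were called lower in CB, 2 of 9 where 75.4% of all genes were called. The other 7 lay between -0.11 (Mag) and 0.21 (Mbp and Myrf) with SEs of 0.14 to 0.28. Against HIP, Mal (-1.22), Cldn11 (-0.88), Mobp (-0.54), Mog (-0.40) and Mag (-0.34) were called lower in CB, 5 of 9 where 75.1% were called. HIP exceeded CX by 0.47 for Mobp and 0.39 for Mal, 2 of 9 where 51.5% were called, and the other 7 lay between 0.23 and 0.39. Adult results leaned on single mice. Without P35_15, the adult WT mouse lowest in CB, 5 genes were called between CB and CX, with Mbp at 0.44, Myrf at 0.52 and Ugt8a at 0.31 higher in CB. Without P35_26 or without P35_17 none was called between HIP and CX. In the mutant mice 5 genes were called higher in CB than in CX (Ugt8a 0.61, Mbp 0.55, Mobp 0.45, Mog 0.42 and Cnp 0.41), Mal (-0.21) and Cldn11 (0.00) were not called, and all 9 were called higher in HIP than in CX, by 0.43 to 0.62. In those fits 41.0% of all genes were called higher in CB than in CX and 30.5% higher in HIP than in CX.

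The rise between periods was tested in each region of WT mice. All 9 genes were called higher at P35 than at P7 in each region, where 33.2% of all genes were called higher in CX, 31.3% in HIP and 40.0% in CB. All 9 were likewise called higher at P7 than at E17.5, where 41.3%, 38.9% and 35.7% of genes were called higher. Mog and Mobp entered these tests through the later periods, as did Mag, Cldn11 and Myrf in CX. Those calls over E17.5 are not support. Nor are the calls from P7 to P35 of Mog in CX and HIP, and of Mobp in HIP. No fold is given for Mog and Mobp over their embryonic level, which was near 0. For the other 7 the log2 rise from E17.5 to P7 ran from 1.78 (Mal) to 5.07 (Cldn11) in CX, from 1.5 (Mal) to 3.05 (Mag) in HIP and from 2.55 (Ugt8a) to 5.57 (Cldn11) in CB. From P7 to P35 the 9 genes rose by 2.82 (Myrf) to 8.88 (Mobp) in CX, 3.01 (Myrf) to 10.60 (Mobp) in HIP and 0.85 (Cnp) to 4.16 (Mal) in CB, with medians of 4.43, 5.35 and 1.33 against -0.03, -0.01 and 0.01 over all genes. Of the 7 genes with both steps, 5 had the larger estimate for the later step in CX (not Cldn11 and Myrf) and 7 in HIP. In CB the earlier step was the larger for 6, and for Mal the later (3.76 and then 4.16). The place of Mal rested on mouse P7_C1_8, without which the steps were 3.97 and 3.94, and that of Myrf in CX on mouse P7_C2_2, without which they were 2.72 and 3.14.

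Expressed as the P7 level in percent of the P35 level (from the fitted rise), the 9 genes covered a wide range. In CX, Mobp stood at 0.212% of its adult level at P7, Mog at 0.358%, Mal at 0.590% and Mag at 1.83%. Cldn11 had reached 4.65%, Mbp 7.71%, Ugt8a 8.47%, Cnp 12.3% and Myrf 14.2%. Thus the transcription factor, both enzymes and Mbp were the most advanced in CX, and the late genes were of several roles. HIP had nearly the same order, from Mobp at 0.0646%, Mog at 0.343% and Mal at 0.560% through Mag at 1.67%, Cldn11 at 2.46%, Mbp at 4.75% and Ugt8a at 7.33% to Cnp at 11% and Myrf at 12.4%. In CB the values were 5.61% for Mal, 15.4% for Mobp, 16.9% for Mog, 35.7% for Mag and 39.9% for Mbp. There they were 43.7% for Myrf, 45.0% for Cldn11, 45.5% for Ugt8a and 55.4% for Cnp. Mal was the furthest from its adult level in CB, whereas Mobp was so in CX and HIP. In mutant mice Mal was again lowest in CB (3.62%) and Mobp in CX (0.126%) and HIP (0.0675%).

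**Figure D3:**
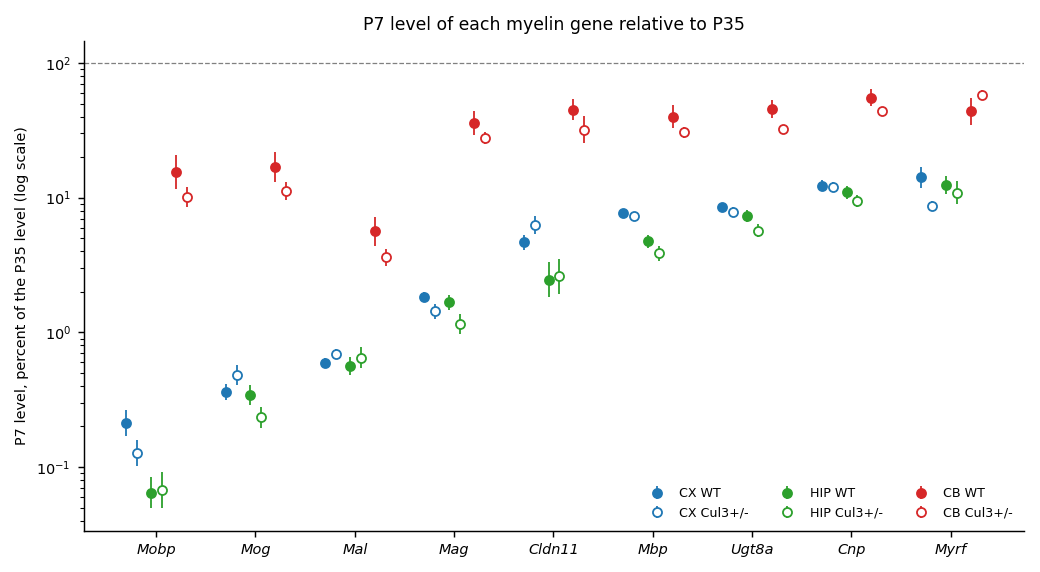
P7 level of each myelin gene as a percent of its P35 level (log axis), in CX, HIP and CB, for WT (filled) and Cul3+/- (open) mice, with bars of 1 SE. In WT mice the CB points run from 5.61% to 55.4% and those of CX from 0.212% to 14.2%, and each gene is highest in CB.

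The difference of these rises between regions was tested as an interaction of region and period in WT mice. All 9 genes rose less from P7 to P35 in CB than in CX, where 36.1% of 19657 genes were called in that direction and 66.7% in either. The log2 difference of the rises was -6.26 ± 0.38 (SE) for Mobp, -5.58 ± 0.38 for Mog, -4.26 ± 0.32 for Mag and -3.31 ± 0.26 for Cldn11. For Mal it was -3.18 ± 0.38, for Ugt8a -2.42 ± 0.27, for Mbp -2.37 ± 0.31, for Cnp -2.20 ± 0.20 and for Myrf -1.91 ± 0.34. The median of the 9 was -3.18, against -0.05 over all genes. All 9 also rose less in CB than in HIP, by -1.98 (Myrf) to -7.96 (Mobp), where 33.8% of genes were called in that direction. These comparisons share the CB libraries. Mog passed the filter on low counts through CB at P7 and the adult libraries, here and in the mutant mice below. Its calls are therefore not support. Between HIP and CX, Mobp (1.70, adjusted p = 0.0171, edgeR) and Cldn11 (0.90, adjusted p = 0.0180) rose more in HIP, 2 of 9 where 25.9% of genes were called. In WT mice Mobp passed the filter through libraries other than those of HIP at P7. Its calls that involve HIP are therefore not support. Leaving out any 1 of the 11 WT mice changed none of the calls against CB, and Mobp then lay between -6.52 and -5.99 against CX. In the mutant mice all 9 were called lower in both comparisons with CB, where 31.7% (CX) and 30.5% (HIP) of all genes were. Between HIP and CX 5 were called (Mbp 0.92, Mog 1.02, Cnp 0.36, Cldn11 1.25 and Ugt8a 0.47), where 35.1% of all genes were. The call of Mog among these is under the limit just given.

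Genes of the steps before the sheath had other courses. The 22 other genes of myelin and mature oligodendrocytes went with the 9: at P7, 18 of the 21 with enough counts were called higher in CB than in CX, with a median log2 difference of 2.00, against 44.1% and 0.06 over all genes. Omg (-0.95) and Gpr37 (-1.02), a myelin glycoprotein gene that neurons also express and a receptor gene, were called lower in CB. From P7 to P35 in CX all 22 were called higher, where 33.2% of all genes were. The rise was least for Sirt2 (0.59), Omg (1.49) and Gpr37 (1.64) and most for Nkx6-2 (6.21), Ermn (6.65) and Opalin (9.86). In CB 20 of the 22 were called higher and Sirt2 was called lower (-0.46), where 40.0% of all genes were called higher and 39.4% lower.

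The 6 genes of newly formed oligodendrocytes were all called higher in CB than in CX at P7, led by Enpp6 (2.76 ± 0.12) and Bcas1 (2.01 ± 0.08). Their median log2 difference was 1.19, against 0.06 over all genes, of which 44.1% were called higher. From P7 to P35, Neu4 (1.56), Enpp6 (1.58) and Bcas1 (1.76) rose in CX and none fell, where 33.2% of all genes rose and 34.5% fell. In CB none of the 6 rose, and Gpr17 (-1.75), Bmp4 (-1.53), Enpp6 (-0.99) and Itpr2 (-0.92) fell. Of all genes 40.0% rose there and 39.4% fell. Their median sum in WT mice went from 49.41 to 338.2 and then 169.7 CPM in CB, and from 12.62 to 154.1 and 212.3 CPM in CX. At P7 mouse P7_C1_8, lowest in the 9 genes in CB, was also the lowest WT mouse in this sum, at 198.4 CPM.

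The 10 genes of precursors and the lineage as a whole had small differences at P7: 5 were called higher and 3 lower in CB than in CX, near the 44.1% and 38.8% of all genes, with a median of 0.12 against 0.06. Pdgfra, the growth factor receptor that marks precursors, stood at 160 CPM in CX and 154.1 CPM in CB (-0.01 ± 0.06). Cspg4 (-0.95), Olig1 (-0.47) and Matn4 (-0.21) were called lower in CB. From P7 to P35 in CX, Cspg4 (-1.05), Pdgfra (-0.97), Lhfpl3 (-0.89) and C1ql1 (-0.38) fell, and Sox8 (0.51) and Sox10 (0.61) rose. Of all genes 34.5% fell there and 33.2% rose. In CB 7 of the 10 fell and none rose, where 39.4% of all genes fell and 40.0% rose. Their median sum peaked at P7 in each region, at 399.1 CPM in CX, 485.1 in HIP and 394 in CB.

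**Figure D4:**
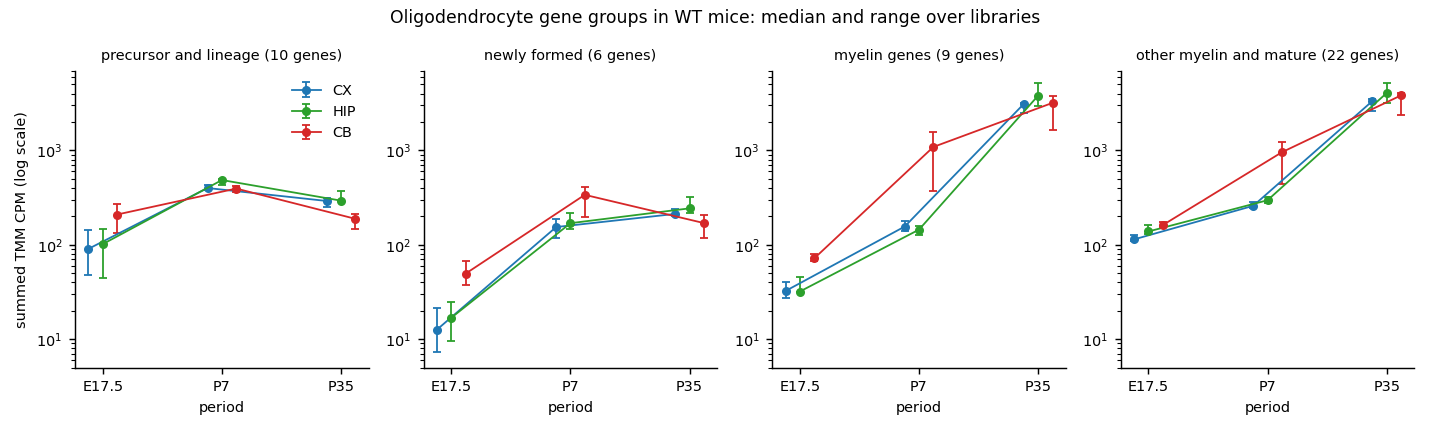
Summed level (TMM CPM, log axis) of 4 gene groups in WT mice by period and region. Points are medians and bars the range over libraries. The myelin genes and the other mature genes stand highest in CB at P7 and meet at P35, while the precursor sums of the 3 regions lie close together at P7 (394 to 485.1 CPM).

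Genes that make the lipids of the sheath followed Ugt8a only in part. Of 8 genes of galactolipid synthesis, 6 were called higher in CB than in CX at P7, where 44.1% of all genes were called higher and 38.8% lower. Fa2h (2.87 ± 0.19), the fatty acid hydroxylase of myelin lipids, led them, and Sptlc2 (-0.58) and Kdsr (-0.12) were called lower. From P7 to P35 in CX, 7 rose, led by Fa2h (4.27) and with Gal3st1, which makes sulfatide, at 1.28, and Sptlc2 fell (-0.82). Of all genes 33.2% rose there and 34.5% fell. Of 9 genes of the node and paranode, the gaps of the sheath, 4 were called higher and 5 lower in CB at P7, near the 44.1% and 38.8% of all genes. In CX 6 of the 9 rose from P7 to P35, where 33.2% of all genes rose and 34.5% fell. The rise was largest for Cntnap1 (3.27), Kcna1 (2.54) and Kcna2 (2.12), and Cntn1 fell (-0.60). Neurons express these node genes, so the group is not one of oligodendrocytes alone.

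The 9 genes moved closely together over the 51 WT libraries, as the shared periods and regions imply. The Pearson correlation of their log2 CPM between pairs ran from 0.9058 (Mal and Myrf) to 0.9912 (Mag and Ugt8a). Of 20289 other genes, the 10 most like the mean of the 9 included Tmem88b (r = 0.9799), 1700047M11Rik (0.9791), Cep83os (0.9781), Sgk2 (0.9778), Nipal4 (0.9744), Tmem125 (0.9724), Mbnl2 (0.9713) and Csrp1 (0.971). Of these, Tmem88b and Nipal4 were in the list of other mature genes. Tmem125 showed the same early rise in CB, at 0.1741 CPM in CX and 2.198 CPM in CB at P7 and at 8.055 and 7.549 CPM at P35. These correlations describe libraries that share mice and developmental stage.

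Mice of P7 differed widely in the CB level of the 9 genes, and the cause was not tested. The summed level of the 9 genes ran from 370.5 to 1584 CPM over the 6 WT CB libraries, against 140.1 to 177.7 CPM in CX and 125.7 to 158.4 CPM in HIP. Whether a mouse high in one region was also high in another was computed for each gene over the 12 P7 mice, after removing the genotype means. Of the 27 relations, none passed at an adjusted p of 0.1 for Pearson's r (permutation test, smallest adjusted p = 0.111). By Spearman's rho 6 passed: Mbp in all 3 pairs of regions (rho of 0.73, 0.73 and 0.75, permutation adjusted p = 0.0676 each), Mag (0.70) and Mobp (0.68) between CX and HIP, and Cnp (0.77) between HIP and CB. The r of Mbp was 0.76 between CX and HIP, 0.62 between CX and CB and 0.64 between HIP and CB. Without the 2 mice farthest from the median these were 0.64, 0.59 and 0.74. The mouse names carry 3 prefixes whose meaning is not given, and the mean of Mbp in CB was 305.1 CPM under C1, 582.8 under C2 and 467.4 under C4. Within the 6 mice of C2 the r of Mbp was 0.44, -0.28 and 0.20 (exact permutation p = 0.408, 0.588 and 0.739). For Mobp between CX and HIP it was 0.95 (exact permutation p = 0.00278, not adjusted), for Mag between these regions 0.34 and for Cnp between HIP and CB 0.08. Of the 6 relations that passed, that of Mobp was thus as large within the prefix, and the other 5 were smaller, with few mice.

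In the comparison of genotypes, which asks whether loss of 1 Cul3 copy altered these genes, none of the 9 was called in any region at any period. Cul3 was the only gene called, which is 0.00603%, 0.00586% and 0.00568% of the genes tested in CX, HIP and CB at E17.5, 0.00566%, 0.00563% and 0.00570% at P7 and 0.00569%, 0.00584% and 0.00584% at P35. All 9 myelin genes could be tested in CB at P7 and in each adult region. In CX and HIP at P7 Mog could not, at E17.5 in HIP and CB Mog and Mobp could not, and at E17.5 in CX Mbp, Cnp, Mal and Ugt8a could. An unadjusted p under 0.05 (edgeR) was reached by 7 of these values. Of all genes, 14.4% reached it in adult CB, where 3 of the 7 lay, 3.66% in adult CX, 3.22% in CX at P7 and 3.50% in CB at E17.5. At P7 in CX, Mbp was at 82.0 ± 9.07 CPM in WT and 70.1 ± 6.67 in mutant mice (log2 difference -0.22 ± 0.08). Myrf there was at 2.27 ± 1.17 and 1.40 ± 0.292 CPM (-0.68 ± 0.27), a difference that went to -0.36 without 1 WT mouse. Both had an adjusted p of 0.900 (edgeR).

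In adult CB, Ugt8a stood at 129 ± 26.9 CPM in WT and 173 ± 18.5 in mutant mice (0.40 ± 0.15, adjusted p = 0.324, edgeR). Mal (0.40 ± 0.16, adjusted p = 0.339, edgeR) and Cldn11 (0.37 ± 0.15, adjusted p = 0.343) differed in the same direction. Without the WT mouse P35_15 these went to 0.28, 0.27 and 0.24. Summed over the 9 genes, the 5 mutant CB libraries held 3047 to 3965 CPM and the WT libraries 1640 to 3794 CPM. Mal in adult CX (-0.18 ± 0.08, adjusted p = 0.997, edgeR) and Mag in CB at E17.5 (-0.35 ± 0.15, adjusted p = 0.988) were the other 2. The remaining values did not pass at p of 0.05, and the interval is wide for genes of low count, such as Mobp in CX at P7 (-0.91 ± 0.58).

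With 5 factors of unwanted variation estimated from replicate libraries (RUVs), the kind of correction the study used, 7 values were called by edgeR's likelihood ratio test. Mbp was lower in mutant mice at P7 in CX (-0.18, adjusted p = 0.0741), HIP (-0.28, 0.0983) and CB (-0.30, 0.0673), where 0.260%, 1.21% and 1.48% of all genes were called. Cldn11 was higher at E17.5 in HIP (0.82, adjusted p = 0.0661), where 1.11% were called. In adult HIP, Mag (0.23, adjusted p = 0.0411), Myrf (0.18, 0.0434) and Ugt8a (0.17, 0.0903) were higher, where 2.77% were called. None of the 7 was called without these factors. With 3 factors no myelin gene was called in any region at any period, although 14, 130 and 65 of all genes were called in CX, HIP and CB at P7. The calls thus depended on the number of factors. The study varied that number and also had sex in its model. The calls of Mbp at P7 come from regions of the same mice, so they are not independent.

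**Figure D5:**
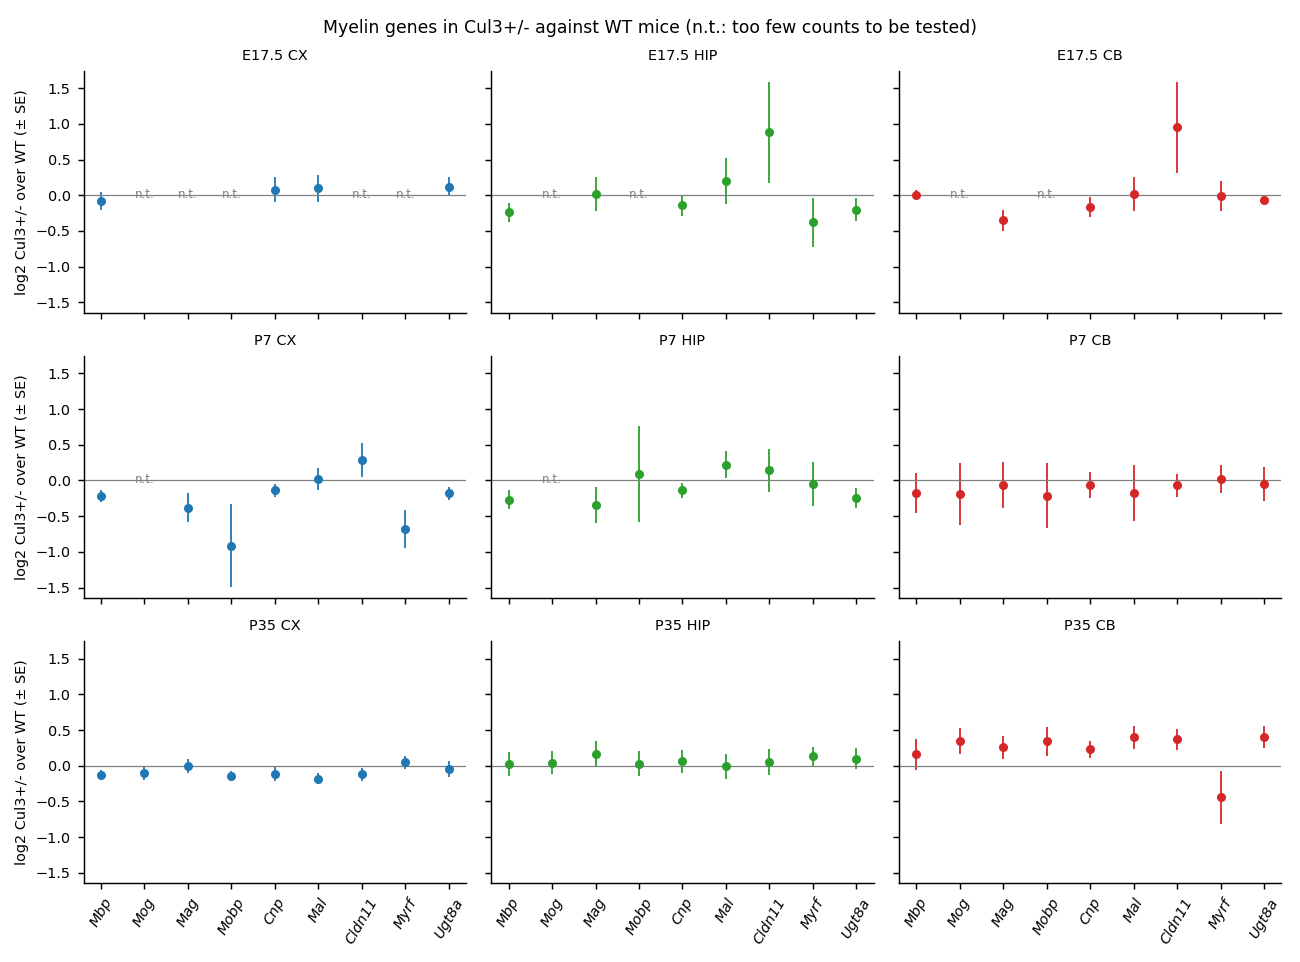
Log2 difference of Cul3+/- from WT mice for each myelin gene by period and region, with SE bars. The label n.t. marks genes with too few counts. No gene passes an adjusted p of 0.1, and the points of adult CB lie above 0 except that of Myrf (-0.44, and 0.07 without the WT mouse P35_17).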

How the data were processed

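Libraries of stranded, ribodepleted total RNA were sequenced by the authors, who trimmed reads with cutadapt 1.14, aligned them with STAR 2.5.3a and estimated expected counts per gene with RSEM 1.3 (GRCm38.p5, GENCODE M16). The deposited table holds these expected counts, of which 5.76% were not whole; they were rounded. Gene positions were read from GENCODE M21. Members and gene lists were chosen with earlier results of these data known.

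CPM values used TMM factors over the libraries of 34 mice, and log2 CPM a prior count of 2. Tests used edgeR 4.0.16 (quasi-likelihood, R 4.3.3) over all genes that passed filterByExpr (minimum count 10, minimum total 15), with Benjamini-Hochberg adjustment and a threshold of 0.1. A gene passed when the libraries that held the count, pooled over the groups of the fit, were at least as many as the smallest group. Genotypes were compared in each period and region with no covariate, regions and the region-by-period interaction in WT mice with the mouse as a block, and periods in each region of WT mice. SE is the log2 difference divided by the root of F. Relations between the mice of P7 used permutation tests (100000 resamples, scipy 1.17.1). The fits were tested on simulated data.

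Named genes were the 9 members, the 3 genes with the largest and the 3 with the smallest P35 to P7 change in CX of each list, genes called against most of their list, the 10 genes most alike, and Cul3. Some genes that this rule names are not reported here. Fa2h, Gal3st1, Pdgfra, Enpp6, Bcas1 and Sirt2 are named as examples where that rule did not already name them. Alternatives were DESeq2 1.42.0, plain library size, TMM within a period, no low-count filter, RUVs factors, the replicate block, the mouse-name prefix as a block, the mutant mice in place of WT, the 2 mice with conflicting genotype under their labels, and leaving out each mouse.

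Replicate numbers do not come with a shared litter or day in the labels. Correlations of deviations between same-numbered WT and mutant libraries all exceeded 0.1 only in adult CX (0.11 to 0.39). Regions were paired by mouse name. Of 270 pairs of libraries of 1 group, none agreed within sampling noise (lowest chi-square per degree of freedom 4.71). Whether mice of a group shared a litter is not given in the sources used here.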

Additional observations from a re-analysis of the deposited data

Results flagged for a closer look

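Of 156 series of a gene in a group, 10 held a library that stood apart from the others of its group by Dixon's test, about as many as the 1 in 20 that chance gives. In CB at P7, Mag was low in the WT mouse P7_C1_8, at 15.1 CPM against 49.4 to 96.3 in the others. Mog (3.68 CPM against 8.35 to 12.8) and Mobp (27.5 CPM against 66.4 to 100) were low there in the mutant mouse P7_C1_7. In adult CX, Mog (53.4 CPM against 66.2 to 71.4) and Mal (327 CPM against 404 to 428) were low in the WT mouse P35_26. In adult CB, Ugt8a was low in the WT mouse P35_15, at 82.0 CPM against 131 to 149, and in the mutant mouse P35_14, at 141 CPM against 175 to 188. Mbp was low in HIP of the mutant mouse E17_5_S3_9, at 9.73 CPM against 14.2 to 16.2. Mal was high in CX of the WT mouse P7_C1_5, at 3.28 CPM against 2.03 to 2.39, and Myrf in CX of the WT mouse E17_5_S3_6, at 0.597 CPM against 0.146 to 0.249.

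The rise from P7 to P35 differed between regions by the test of the interaction itself. The limits given above on the calls of Mog, and of Mobp with HIP, hold here too. CB rose less than CX by a log2 difference of -2.37 for Mbp, -5.58 for Mog, -4.26 for Mag, -6.26 for Mobp, -2.20 for Cnp, -3.18 for Mal, -3.31 for Cldn11, -1.91 for Myrf and -2.42 for Ugt8a. Against HIP the differences were -3.03 for Mbp, -5.59 for Mog, -4.35 for Mag, -7.96 for Mobp, -2.33 for Cnp, -3.25 for Mal, -4.21 for Cldn11, -1.98 for Myrf and -2.59 for Ugt8a. HIP rose more than CX for Mobp (1.70) and Cldn11 (0.90).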

How the results depend on the processing

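The calls of all 9 genes between CB and the other regions at P7, between periods, and for the region-by-period interaction against CB kept their number under every alternative run, except 8 from E17.5 to P7 in HIP of mutant mice. Other counts of called genes moved, and not only through values near the threshold. Myrf for adult HIP against CX, not called in WT mice, had an adjusted p of 8.5e-05 (edgeR) in mutant mice. With 5 RUVs factors the genotype comparison called 1 gene in HIP at E17.5, 1 each in CX, HIP and CB at P7 and 3 in adult HIP, where the count was 0. With 3 RUVs factors these counts stayed at 0. With Cul3+/- mice in place of WT, 5 genes were called for HIP against CX in the interaction, 5 for adult CB against CX and 9 for adult HIP against CX, where each count was 2. The interaction counts include Mog in mutant mice and Mobp in WT mice, whose calls are not support. With no replicate block of mice, 1 gene was called for HIP against CX at P7 and 1 in the interaction (2 each with it). Plain library size gave 3 for adult CB against HIP (5 before), and no low-count filter gave 4 for adult HIP against CX. Leaving out 1 mouse gave 2 to 5 calls for adult CB against CX (5 without P35_15), 2 to 5 for CB against HIP (2 without P35_15 or P35_26) and 0 to 4 for HIP against CX (0 without P35_17 or P35_26, 4 without P35_15).

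The fits of genotype and period with a replicate block called 0 and 9 members as before, although over all genes the block moved the genotype calls from 1 to 55 in E17.5 CX and to 0 in adult CB, where DESeq2 gave 218.

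Signs that turned belonged to uncalled differences unless named. In the HIP-to-CX interaction Mog went to -0.01 (plain library size), -0.04 (DESeq2) and -0.03 (with P35_22 and P35_23), and Myrf to -0.26 in mutant mice. Ugt8a for HIP against CX at E17.5 went to -0.01 without the filter and -0.31 in mutant mice. In mutant mice, adult CB against CX was 0.00 for Cldn11, 0.20 for Mag, 0.45 for Mobp, 0.42 for Mog and -0.05 for Myrf, and CB against HIP was 0.00 for Mbp and 0.17 for Ugt8a. Their P7 HIP-to-CX values were -0.53 for Mog and -0.02 for Ugt8a. Plain library size gave 0.03 for Mobp and 0.03 for Mog (adult CB against CX), and no replicate block gave 0.05 for Myrf (adult CB against HIP). The cause was not tested.

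With 1 mouse left out, the genotype difference ran from -0.02 to 0.19 for Ugt8a in adult HIP and -0.36 to 0.02 for Mbp in CB at P7. The HIP-to-CX interaction ran from -0.02 to 0.24 for Cnp, -0.06 to 0.21 for Mag, -0.06 to 0.19 for Mal, -0.21 to 0.25 for Mog and -0.09 to 0.24 for Myrf. At E17.5, CB against HIP ran from -0.95 to 0.28 for Cldn11 and -0.28 to 0.13 for Mal, and HIP against CX from -0.03 to 0.06 for Ugt8a. Adult CB against CX ran from -0.00 to 0.17 for Cnp, -0.17 to 0.08 for Mag, -0.17 to 0.14 for Mobp, -0.14 to 0.12 for Mog and -0.13 to 0.52 for Myrf. Adult CB against HIP ran from -0.32 to 0.04 for Mbp, -0.42 to 0.05 for Myrf and -0.27 to 0.01 for Ugt8a. Depth limits Mog and Mobp at E17.5 in all 3 regions, and both at P7 in CX and HIP.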
